A study of Rattus norvegicus with 57 samples.

Results

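Fgf21 and Gdf15, the genes of a pair of stress-induced hormones, and the receptor genes Klb and Fgfr4 were followed in rat liver during and after dosing with methapyrilene, a histamine receptor blocker that damages the liver of rats. The 4 genes were chosen by symbol, with their log2 signals over the 12 groups of dose and day already known, so their changes and p-values are given as a description and do not show that they stand out. Fgf21, Gdf15 and Fgfr4 each had 1 probe set annotated to that symbol alone, among 14218 genes with such a probe set, and all 3 were among the 10725 genes that passed a filter on low signals and were tested. Klb had none and was not analysed here.

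FGF21 is a peptide hormone that the liver releases under fasting, amino acid shortage and other stress. It signals through an FGF receptor together with the co-receptor beta-Klotho, which Klb encodes. FGFR4 is the main FGF receptor of hepatocytes, where it pairs with beta-Klotho to receive the ileal hormone that lowers bile acid synthesis. GDF15 is a distant member of the TGF-beta family that acts on the hindbrain through GFRAL and RET to suppress appetite. Both hormone genes are known targets of the integrated stress response, in which phosphorylation of eIF2 raises translation of the transcription factor ATF4.

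Male Han Wistar rats aged 8 to 10 weeks received 0 (vehicle control), 30 or 80 mg/kg methapyrilene daily by gavage in carboxymethylcellulose. Livers were collected on days 4, 8 and 15 of the study and once more on day 24, for which dosing had stopped after 14 days and the rats had recovered for 10. There were 57 arrays, 1 for each animal as the labels describe it. Each of the 12 groups had 5 arrays, except 3 with 4 arrays: the 80 mg/kg group of day 4, the 30 mg/kg group of day 24 and the control group of day 24. Values are MAS5 signals of 1 probe set on a linear scale, brought to the same mean level on each array. Changes are differences of log2 means ± standard error from limma, with p-values adjusted by Benjamini-Hochberg over all 10725 genes, and a gene passed under 0.05. The number of arrays limits their precision. Both doses were compared with the same control arrays, so the changes at 30 and 80 mg/kg share that part.

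Fgf21 rose at every time point under dosing at both doses and no longer passed the test after recovery. In the 14 livers dosed at 80 mg/kg to day 4, 8 or 15 its signal lay between 136.5 and 1429.53, above all 19 control livers of any day, which lay between 16.75 and 38.33. At 30 mg/kg, 14 of 15 dosed livers lay above all controls, and their range was 37.42 to 920.74. Gdf15 rose at 80 mg/kg on days 8 and 15. Fgfr4 fell at 80 mg/kg on days 4, 8 and 15, and 13 of 14 dosed livers lay below every control liver. The share of all genes so placed against controls of any day was not counted. Against controls of the same day, lack of overlap was common at 80 mg/kg on days 4 to 15. It held for 14.5% to 30% of all genes upward and 6.62% to 14.6% downward.

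**Figure D1:**
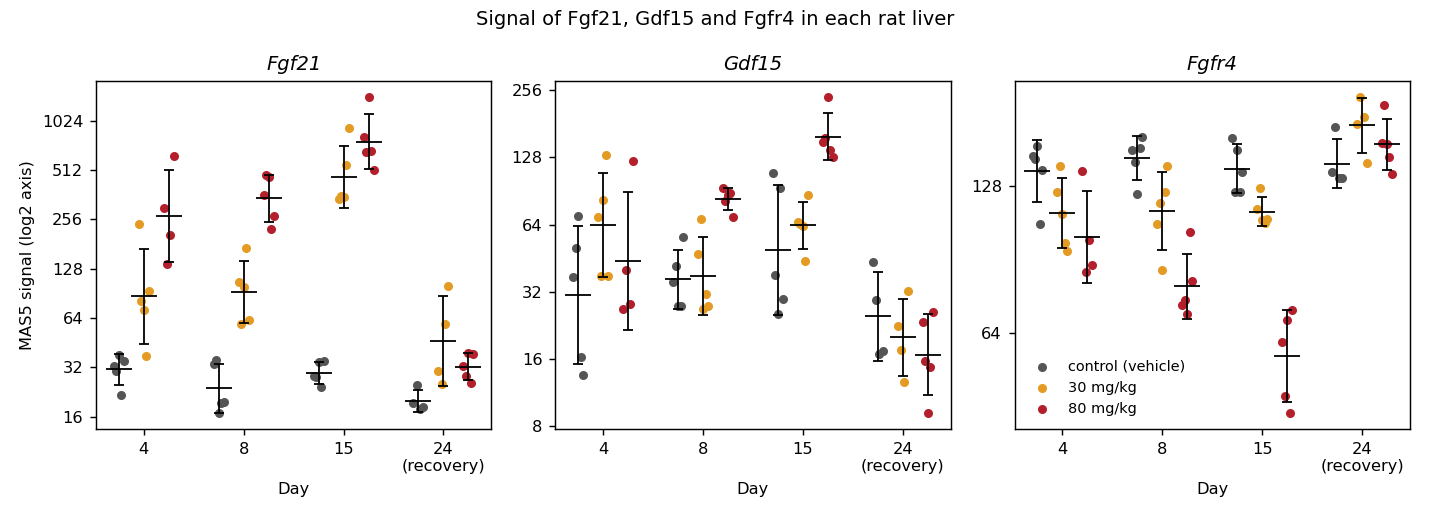
MAS5 signal (log2 axis) of Fgf21, Gdf15 and Fgfr4 in each liver by day, with control, 30 mg/kg and 80 mg/kg from left to right within a day. Points are single rats, the long dash is the geometric mean and the bars are 1 SD of the log2 signal (n = 4 or 5); Fgf21 at 80 mg/kg reaches 1429.53 on day 15, while all controls stay at 38.33 or below.

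The promoters of the 2 hormone genes are shown because both genes are known ATF4 targets. They are the 250 bases before the start in RefSeq (GRCr8), 5′ to 3′, with capitals for the motifs found wholly within them. The Fgf21 stretch is chr1:105221377-105221626, minus strand, and that of Gdf15 is chr16:18839015-18839264, plus strand, before the second of its 2 annotated starts.
Fgf21: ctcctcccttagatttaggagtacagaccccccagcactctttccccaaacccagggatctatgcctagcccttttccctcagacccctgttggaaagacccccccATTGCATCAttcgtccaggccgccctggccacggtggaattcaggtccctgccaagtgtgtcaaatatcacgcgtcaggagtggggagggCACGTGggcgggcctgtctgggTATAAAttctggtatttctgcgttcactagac
Gdf15: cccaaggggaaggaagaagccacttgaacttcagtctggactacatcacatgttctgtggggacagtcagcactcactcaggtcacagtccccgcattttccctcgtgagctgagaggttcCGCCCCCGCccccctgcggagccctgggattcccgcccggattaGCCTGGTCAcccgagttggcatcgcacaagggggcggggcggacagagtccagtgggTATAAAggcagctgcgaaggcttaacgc

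Both strands were searched, from 250 bases before to 50 after the start, for 8 motifs. In Fgf21 the composite site of ATF4 and C/EBP, TGATGNAA, was matched on the reverse strand at position -143, where position -1 is the base before the start. It lies within a match of the longer form TGATGCAAT, which begins at -144. TGATGNAA occurred in 3.98% of 33469 rat promoters of this length and TGATGCAAT in 0.188%. Fgf21 also had the E-box CACGTG at -54 (6.42% of promoters) and the TATA box TATAAA at -32 (14.2%).

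Neither window of Gdf15 held the composite site. Before the second start lay the EGR1 site GCGGGGGCG on the reverse strand at -129 (2.73% of promoters), the Nrf2 element TGACNNNGC on the reverse strand at -85 (12.1%) and a TATA box at -28. A further Nrf2 element began at -2 and crossed the start. The window of the first Gdf15 start and that of Fgfr4 had no match. The UPR element TGACGTG (1.81%) and the cyclic AMP element TGACGTCA (1.83%) were matched in none of the windows of the 4 genes. Klb had a single match, an Nrf2 element at 27.

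On day 4 the signal of Fgf21 was 301.89, 136.5, 204.86 and 625.35 in 80 mg/kg livers, against 32.67, 30.27, 38.33, 21.85 and 35.24 in controls. The groups did not overlap, although the highest dosed liver stood 4.581 times above the lowest. The change was 3.11 ± 0.38, or 8.66-fold (adjusted p = 2.91e-08, limma). By day 8 the 80 mg/kg livers read 360, 476.14, 466.48, 224.5 and 266.62, and the controls 33.61, 35.46, 16.75, 19.46 and 19.68, a change of 3.85 ± 0.36. Day 15 gave the highest values, 810.23, 655.07, 1429.53, 664.05 and 511.21 in 80 mg/kg livers, against 28.16, 27.76, 34.31, 24.23 and 35.03 in controls. That difference was 4.69 ± 0.36, or 25.7-fold (adjusted p = 7.12e-16, limma). Ordered by the size of the rise, Fgf21 was number 10 of the 10725 genes on day 4, 16 on day 8 and 12 on day 15. Rises were common at 80 mg/kg, where 18.3% of all genes rose on day 4, 34.2% by day 8 and 38.8% by day 15. Groups that did not overlap in this direction made up 14.5%, 22.7% and 30% of genes on the same days.

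At 30 mg/kg few other genes moved, and Fgf21 was among those that did. On day 15 its signal was 341.84, 355, 348.89, 550.71 and 920.74 in 30 mg/kg livers, and every one lay above every control of that day (24.23 to 35.03). The change was 3.97 ± 0.36, or 15.7-fold (adjusted p = 7.57e-11, limma), number 2 of 10725 genes by size. Of all genes 2.71% rose at that dose on day 15, and 3.69% had no overlap in that direction. On day 8 the 30 mg/kg livers read 106.59, 59.25, 98.67, 172.26 and 62.11, again without overlap with the controls (16.75 to 35.46). This rise of 1.95 ± 0.36 (adjusted p = 0.00255, limma) was number 7 by size, on a day on which 0.177% of genes rose and 1.4% had no overlap upward.

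The rise at 30 mg/kg on day 4 was smaller and less secure. Fgf21 read 239.77, 81.51, 71.83, 37.42 and 93.44 in 30 mg/kg livers, against 21.85 to 38.33 in controls, so replicate 1 was high and replicate 4 lay within the control range. The change was 1.48 ± 0.36 (adjusted p = 0.0363, limma), with 0.531% of genes rising. It did not pass without 30 mg/kg replicate 1 (1.11, adjusted p = 0.107). It also missed the threshold without 30 mg/kg replicate 2 (adjusted p = 0.0718) or 5 (1.45, adjusted p = 0.08). The same held without control replicate 2 (1.47, adjusted p = 0.0827), 3 (1.55, adjusted p = 0.0718) or 4 (1.35, adjusted p = 0.0882). Fitted on the arrays of the compared groups alone it gave an adjusted p of 0.161.

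Between the doses, Fgf21 was higher at 80 than at 30 mg/kg by 1.64 ± 0.38 on day 4 (adjusted p = 0.00173, limma) and by 1.90 ± 0.36 on day 8 (adjusted p = 2.66e-05). Of all genes, 13.2% were higher at 80 mg/kg on day 4, and 31.6% on day 8. On day 15 the step was 0.72 ± 0.36 and missed the threshold (adjusted p = 0.0885), with a 95% interval of -0.01 to 1.44. The ranges overlapped there, at 511.21 to 1429.53 in 80 mg/kg livers and 341.84 to 920.74 in 30 mg/kg livers. Without 30 mg/kg replicate 5, the highest liver of its group, the step was 0.96 and passed (adjusted p = 0.0261), and with array weights it was 0.98 (adjusted p = 0.00895).

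The effect of each dose on Fgf21 grew from day 4 to day 15. At 80 mg/kg the change against control was larger on day 15 by 1.57 ± 0.53 (adjusted p = 0.0232, limma), where 14.3% of genes had such a gain. Without 80 mg/kg day 4 replicate 3 it was 1.24 (adjusted p = 0.0916). It was 1.44 without day 4 replicate 4 (adjusted p = 0.0545) and 1.34 without day 15 replicate 3 (adjusted p = 0.0592). With the 3' to 5' ratio of actin control probe sets as a covariate it was 1.55 (adjusted p = 0.0591). The gain at 30 mg/kg was 2.49 ± 0.51 (adjusted p = 0.0258), and 0.0653% of genes, 7 in all, passed. That call was lost in 8 of the 20 fits that left out 1 array, with adjusted p up to 0.0793 and the gain between 2.19 and 2.86. The arrays concerned were control day 4 replicates 3 and 5, control day 15 replicate 4, 30 mg/kg day 4 replicates 2, 3 and 4, and 30 mg/kg day 15 replicates 4 and 5.

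After 10 days of recovery Fgf21 read 32.44, 28.42, 38.99, 25.57 and 38.62 in 80 mg/kg livers, against 19.28, 25.09, 17.78 and 18.27 in controls of day 24. All 5 treated livers lay above the 4 controls, by a margin of 25.57 against 25.09 at the nearest, and 8.08% of genes showed such a separation. The difference of 0.70 ± 0.38 did not pass (adjusted p = 0.241, limma), while 10.2% of all genes passed in either direction. In 30 mg/kg livers the signals were 30.39, 25.26, 58.59 and 100.79, so that replicates 3 and 4 exceeded every control liver of any day. All 4 lay above the controls of day 24, as did 2.16% of genes. That difference was 1.21 ± 0.41 (adjusted p = 0.234), and 0.0932% of all genes passed. Against day 15, the effect fell by 3.99 ± 0.53 at 80 mg/kg (adjusted p = 2.03e-08) and by 2.76 ± 0.54 at 30 mg/kg (adjusted p = 0.00519). Such falls were found in 26.1% of genes at 80 mg/kg and in 0.69% at 30 mg/kg.

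**Figure D2:**
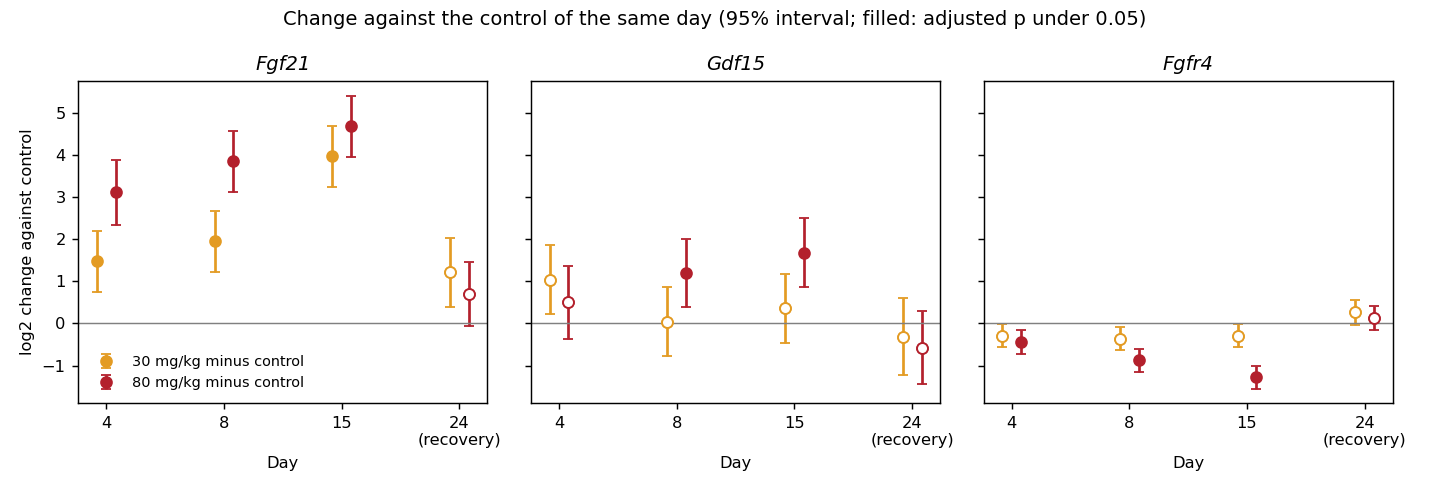
Change of log2 signal against the control of the same day for 30 and 80 mg/kg, with the 95% interval of the fit; filled points passed limma's adjusted p under 0.05 and open points did not. Fgf21 at 30 mg/kg reaches 3.97 on day 15, near the 4.69 at 80 mg/kg, while Gdf15 and Fgfr4 have no filled point at 30 mg/kg.

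Gdf15 passed at 80 mg/kg on days 8 and 15 and at 30 mg/kg on no day. The differences in its 80 mg/kg effect between these days and day 4 did not pass, with day 8 minus day 4 at 0.69 (adjusted p = 0.544, limma) and day 15 minus day 4 at 1.18 (adjusted p = 0.146). Without 80 mg/kg replicate 5 of day 4 the second of these was 1.67 and passed (adjusted p = 0.0279). On day 4 its signal was 26.83, 40.24, 28.1 and 122.77 in 80 mg/kg livers and 37.21, 50.18, 69.7, 16.34 and 13.52 in controls. A single dosed liver, replicate 5, stood above the controls, and the difference of 0.50 ± 0.43 did not pass (adjusted p = 0.422, limma). That same rat also had the highest Fgf21 signal of its group. Without it the difference was 0.01.

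On day 8 Gdf15 read 92.86, 81.69, 86.5, 88.81 and 69.43 in 80 mg/kg livers, against 35.36, 41.82, 27.6, 27.77 and 56.47 in controls, with no overlap. The rise of 1.20 ± 0.41, or 2.29-fold, passed (adjusted p = 0.0122, limma), on a day when 34.2% of genes rose and 22.7% had no overlap upward. By day 15 the dosed livers had reached 149.83, 156.43, 238.37, 138.3 and 128.53. Controls of that day were spread widely, at 108.72, 38.12, 25.46, 93.35 and 29.85, and still lay below every dosed liver. This rise was 1.68 ± 0.41, or 3.20-fold (adjusted p = 0.000382, limma). It was number 410 of 10725 genes by size, against number 12 for Fgf21, with 38.8% of genes up and 30% without overlap in that direction.

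The lower dose gave no called change of Gdf15 on any day. On day 4 its signals were 68.99, 37.65, 82.14, 130.38 and 37.59 in 30 mg/kg livers, against 13.52 to 69.7 in controls. The groups overlapped, and the difference was 1.04 ± 0.41 (adjusted p = 0.224, limma). On day 8 it was 0.04, with a 95% interval of -0.77 to 0.86. For day 15 the livers read 65.94, 64.16, 63.21, 43.83 and 87.13, all within the control range of 25.46 to 108.72, and the difference was 0.36 with an interval of -0.46 to 1.18. Gdf15 was higher at 80 than at 30 mg/kg by 1.15 ± 0.41 on day 8 (adjusted p = 0.0176) and by 1.32 ± 0.41 on day 15 (adjusted p = 0.00502), without overlap on either day. On day 8, 31.6% of genes were higher at 80 mg/kg and 19.8% did not overlap. These shares were 37% and 29% on day 15. With arrays set to a common median the step on day 8 was 0.95 and missed the threshold (adjusted p = 0.0543).

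After recovery Gdf15 was low in all groups. It read 23.56, 15.69, 9.14, 14.77 and 25.98 in 80 mg/kg livers and 43.72, 29.5, 16.89 and 17.47 in controls, a difference of -0.57 ± 0.43 (adjusted p = 0.413, limma). In 30 mg/kg livers it lay between 12.59 and 32.11. Against day 15 the effect of 80 mg/kg fell by 2.25 ± 0.59 (adjusted p = 0.00165), again among the 26.1% of genes with such a fall. Many of these signals sit near or below the median of all probe sets, 17.09, and low MAS5 signals are less certain than high ones.

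At 80 mg/kg the estimated fall of Fgfr4 against control was larger on each later day. The single steps did not pass, with day 8 minus day 4 at -0.42 (adjusted p = 0.198, limma) and day 15 minus day 8 at -0.41 (adjusted p = 0.209). On day 4 its signal was 137.79, 85.52, 99.38 and 88.26 in 80 mg/kg livers, against 148.1, 146.02, 154.74, 107.17 and 138.31 in controls. Replicate 2 lay within the control range and the other 3 below it. The change was -0.45 ± 0.14 (adjusted p = 0.0146, limma), and 9.19% of genes fell. It missed the threshold without 80 mg/kg replicate 3 (-0.37, adjusted p = 0.0731) or 5 (-0.39, adjusted p = 0.073), and on the compared groups alone (adjusted p = 0.0538).

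By day 8 Fgfr4 read 72.98, 74.91, 70.17, 103.29 and 81.87 in 80 mg/kg livers, below every control, which read 151.85, 143.72, 123.38, 153.34 and 161.85. That change was -0.87 ± 0.13 (adjusted p = 4.01e-07, limma). Day 15 brought the lowest levels, 61.51, 47.51, 68.26, 43.81 and 71.26 in 80 mg/kg livers, against 161.04, 124.63, 152.13, 124.8 and 137.27 in controls. Fgfr4 had fallen by 1.28 ± 0.13 (adjusted p = 1.24e-11), to 0.412 of the control level. Of all genes, 16.6% fell on day 8 and 20.5% on day 15, and 11.3% and 14.6% had no overlap downward. The change on day 15 differed from that on day 4 by -0.83 ± 0.20 (adjusted p = 0.00131), and 10.1% of genes passed in that direction.

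In 30 mg/kg livers Fgfr4 lay between 94.56 and 141.15 on day 4, 86.31 and 140.88 on day 8, and 107.48 and 127.27 on day 15. The differences from control were -0.29, -0.36 and -0.29, and none passed (adjusted p = 0.326, 0.26 and 0.222, limma). On day 15, 4 of 5 livers lay below all controls, and the interval of the difference was -0.57 to -0.02. Against 30 mg/kg, the 80 mg/kg livers were lower, with differences of -0.51 ± 0.13 on day 8 (adjusted p = 0.00156) and -0.98 ± 0.13 on day 15 (adjusted p = 1.89e-08). Among all genes 14.6% were lower at 80 mg/kg on day 8 and 18.3% on day 15, and on day 15 13.6% were so without overlap, as was Fgfr4. After recovery Fgfr4 was 157.47, 187.76, 156.81, 147.27 and 135.77 in 80 mg/kg livers, against 136.88, 169.26, 133.27 and 133.49 in controls. The difference of 0.13 ± 0.14 did not pass (adjusted p = 0.592) and became -0.12 with arrays at a common median. In 30 mg/kg livers Fgfr4 lay between 142.91 and 195.47 after recovery, a difference of 0.26 ± 0.15 that did not pass (adjusted p = 0.562, limma). Relative to day 15 the effect of 80 mg/kg rose by 1.41 ± 0.20 (adjusted p = 6.46e-08), as 16.6% of genes did.

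In control livers none of the 3 genes passed between days. The largest control differences from day 4 were 0.67 ± 0.41 for Gdf15 on day 15 and -0.64 ± 0.38 for Fgf21 on day 24. For the whole table, 20.5% of genes passed between control days 24 and 4. The log2 ratio of the 3' to the 5' actin control probe sets, a measure of RNA integrity, was 2.55 to 3.29 on day 24 and 1.91 to 2.67 on the other days. With this ratio as a covariate, the day 24 differences between 80 mg/kg and control were 0.69 for Fgf21, -0.58 for Gdf15 and 0.094 for Fgfr4, and none passed. The changes of the 80 mg/kg effect from day 15 to day 24 were -3.98, -2.25 and 1.43 in that fit, and all 3 passed.

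Over the 12 groups, the geometric mean of Fgf21 was highest at 80 mg/kg on day 15 (762), followed by the 30 mg/kg group of that day (464) and then the 80 mg/kg groups of day 8 (344) and day 4 (269.6). Next came 30 mg/kg on day 8 (92.2) and on day 4 (86.7). The 3 recovery groups and the other controls lay at 46.1 or below. Of the steps between neighbours, those from the first to the second and from the fourth to the fifth group exceeded the larger SD of the pair. For Gdf15 the order began with 80 mg/kg on day 15 (158) and day 8 (83.4), and the single step between neighbours larger than the spread lay between these 2. All other Gdf15 groups lay between 16.7 and 63.7, and no step between neighbours among them exceeded the larger SD of the pair. Fgfr4 was lowest at 80 mg/kg on day 15 (57.4), then at 80 mg/kg on day 8 (79.8) and day 4 (100.8). Its 3 groups of 30 mg/kg under dosing lay at 112.9 to 113.9, below the 4 control groups at 137.8 to 146.2. Highest were the recovery groups of 80 mg/kg (156.1) and 30 mg/kg (170.8).

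Across rats of the same group, no correlation between the 3 genes passed a test that permuted arrays within groups. After removal of the group means, Fgf21 and Gdf15 had r = 0.132 over 57 arrays (permutation p = 0.4, adjusted over the 3 pairs p = 0.988). Spearman's rho was 0.0861 (permutation p = 0.548, adjusted p = 0.916). Without the 2 arrays farthest from the median, r was 0.0232. For Fgf21 with Fgfr4, r was 0.00245 (permutation p = 0.988) and rho -0.0187 (permutation p = 0.903). For Gdf15 with Fgfr4, r was -0.0118 (permutation p = 0.941) and rho 0.0159 (permutation p = 0.916). Without 2 arrays these r were 0.00727 and 0.00207. Taken dose by dose, 19 arrays each, Fgf21 and Gdf15 had r = 0.56 at 80 mg/kg (permutation p = 0.0706, adjusted p = 0.318 over 9 relations), -0.118 at 30 mg/kg and 0.0818 in controls. The r at 80 mg/kg was 0.339 without 2 arrays. Fgf21 and Fgfr4 had r = 0.555 in controls (permutation p = 0.0182, adjusted p = 0.164).

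The genes whose 12 group means were most like those of Fgf21 were Rps6 (r = 0.96), Gadd45a (0.955), Trib3 (0.95), Rpsa (0.949) and Slc1a4 (0.945). Rps6 and Rpsa encode proteins of the small ribosomal subunit, Gadd45a a growth arrest protein, Trib3 a pseudokinase and Slc1a4 an amino acid transporter. For Gdf15 they were Prelid1 (0.955), Stambp (0.954), Surf1 (0.954), Ptpmt1 (0.954) and Gnb2 (0.95). Prelid1, Surf1 and Ptpmt1 encode mitochondrial proteins. Fgfr4 was most like Asrgl1 (0.983), Lrp1 (0.976), Gpc4 (0.972), Slc22a17 (0.972) and Gpld1 (0.971), of which Lrp1 is an endocytic receptor and Gpc4 a glypican. The group means of Fgf21 and Gdf15 had r = 0.788, which placed Gdf15 at number 924 of 10724 genes by likeness to Fgf21. These correlations describe 12 means that share dose and day.

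Among the other endocrine FGF genes, the receptors Fgfr2 and Fgfr3 also fell at 80 mg/kg on day 15, by 0.85 ± 0.15 (adjusted p = 1.55e-06, limma) and by 0.38 ± 0.15 (adjusted p = 0.0319). Fgfr1 (0.13 ± 0.14) and the decoy-like receptor Fgfrl1 (0.07 ± 0.14) did not pass there. With Fgf21 and Fgfr4, 1 of 6 tested genes of that list rose and 3 fell, beside 38.8% and 20.5% of all genes. The probe sets annotated to Fgf19, to the phosphate hormone Fgf23 and to its co-receptor Kl stayed below 17.09 on every array. Of 15 genes for paracrine FGF ligands, 1 passed the filter on low signals and did not pass the test.

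The signalling and feedback genes below FGF receptors moved in both directions on day 15. At 80 mg/kg, 5 of 17 tested rose and 3 fell, near the shares over all genes of 38.8% and 20.5%, with a median change over the list of 0.27, against 0.16 over all genes. Sprouty inhibitors of this pathway rose, Spry4 by 0.77 ± 0.21 and Spry2 by 0.65 ± 0.19, as did the phosphatase Ptpn11 by 0.71 ± 0.10. The ERK phosphatase Dusp6 fell by 0.74 ± 0.28 and the adaptor Gab1 by 0.48 ± 0.09. With quantile normalization the count turned to 3 up and 5 down.

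FGFR4 is known to act on bile acid synthesis. In a list of genes for bile acid synthesis, transport and control, 4 of 8 tested fell at 80 mg/kg on day 15 and 1 rose. Of all genes 20.5% fell and 38.8% rose, and the median of the list was -0.55. The genes that fell encode carriers and nuclear receptors, not enzymes of synthesis. The bile acid uptake carrier Slc10a1 fell by 1.99 ± 0.16 and the canalicular export pump Abcb11 by 0.97 ± 0.17 (adjusted p = 1.11e-15 and 3.12e-06, limma). The nuclear receptors Nr5a2 and Nr1h4 each fell by 0.55. Cyp7a1, the rate-limiting enzyme of bile acid synthesis, rose by 0.70 ± 0.28 (adjusted p = 0.0262), a call that was lost with arrays at a common median. At 30 mg/kg, where Fgfr4 did not pass, Cyp7a1 rose by 0.93 ± 0.28 on day 15 (adjusted p = 0.0382), and that call was lost under quantile normalization and at a common median.

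For GDF15, the receptor gene Gfral was not analysed here and the probe set of its partner Ret stayed at or below 3.39 on every array. Gfra3, a relative of the receptor that binds artemin, rose at 80 mg/kg by 0.74 ± 0.23 on day 4, 1.19 ± 0.22 on day 8 and 1.87 ± 0.22 on day 15. It rose at 30 mg/kg on day 15 by 1.26 ± 0.22 (adjusted p = 0.000257, limma). Of the convertases that can cut TGF-beta family precursors, Pcsk6 (0.56 ± 0.11) and Pcsk7 (0.33 ± 0.09) rose at 80 mg/kg on day 15. Furin (-0.54 ± 0.09) and Pcsk5 (-0.96 ± 0.23) fell. Calls in both directions were common there, as 38.8% of all genes rose and 20.5% fell. Gfra1 (-0.37), Gfra2 (-0.12) and the metalloprotease gene Mmp14 (0.14) did not pass.

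Among TGF-beta family ligands, 4 of 12 tested genes rose and 3 fell at 80 mg/kg on day 15, with a median of -0.09, where 38.8% of all genes rose and 20.5% fell. The activin and inhibin subunit genes moved apart. Inhbb, whose signal reached no more than 23.05, rose by 2.41 ± 0.76 and Inhbe by 0.77 ± 0.22, while Inhba fell by 3.29 ± 0.19 and Inhbc by 1.98 ± 0.17.

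Of ATF4 target genes other than the hormones, 14 of 25 tested rose at 80 mg/kg on day 4, 17 on day 8 and 19 on day 15, and 2, 2 and 3 fell. Of all genes 18.3%, 34.2% and 38.8% rose on these days. The median change was 0.70, 1.08 and 1.56, against 0.08, 0.15 and 0.16 over all genes. On day 15 the serine synthesis gene Phgdh rose by 6.48 ± 0.71, Trib3 by 4.89 ± 0.34, the cationic amino acid transporter Slc7a1 by 4.08 ± 0.28 and asparagine synthetase Asns by 3.85 ± 0.32. The geometric mean signals of Phgdh and Slc7a1 in controls of day 15 lay below 17.09, the median of all values. The sizes of their changes against these controls are therefore uncertain at both doses. In 30 mg/kg livers 10 of 25 rose on day 15 and none fell, where 4.6% of all genes passed. Set beside the 3.97 of Fgf21 at that dose, the changes were 3.91 ± 0.71 in Phgdh, 2.41 ± 0.34 in Trib3, 1.35 ± 0.28 in Slc7a1 and 1.55 ± 0.32 in Asns. Those genes were named for the size of their rise at 80 mg/kg, and some other genes of the list had smaller steps between the doses. After recovery at 80 mg/kg, 2 of 25 were up, Phgdh by 3.45 ± 0.75 and Stc2 by 1.41 ± 0.48, and Psph was down by 0.57 ± 0.15. These counts were near the shares over all genes, of which 7.15% were up and 3.08% down.

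**Figure D3:**
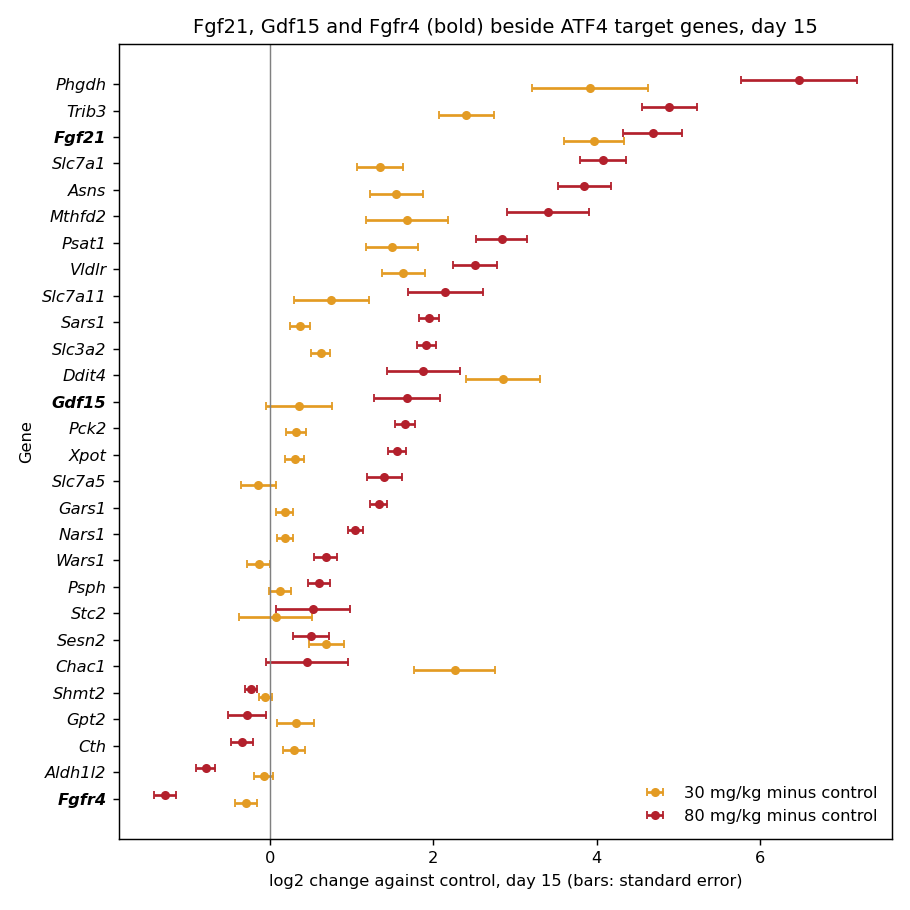
Change of log2 signal against control on day 15 with its standard error for Fgf21, Gdf15 and Fgfr4 (bold) and 25 ATF4 target genes, at 80 mg/kg (red, upper point of a pair) and 30 mg/kg (orange, lower point), in the order of the change at 80 mg/kg. Fgf21 has 4.69 and 3.97, and Slc7a1 has 4.08 and 1.35. A small step between the doses is not particular to Fgf21. At 80 minus 30 mg/kg Fgf21 had 0.72, which did not pass, and Psph 0.48, which did. Shmt2 had -0.17, but it fell against control at 80 mg/kg, by 0.23. Some of the other targets had larger steps than Fgf21 and some did not. Both doses share the control arrays.

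Regulators of the integrated stress response rose in 14 of 21 tested genes at 80 mg/kg on day 15 and fell in 3, beside 38.8% and 20.5% of all genes. They included the transcription factors Atf3 (4.00 ± 0.55), Ddit3 (3.15 ± 0.26) and Nupr1 (3.14 ± 0.27). Atf4 itself rose by 0.91 ± 0.12. Of the eIF2 kinases, the haem-regulated Eif2ak1 fell by 0.35 ± 0.09, and Eif2ak2 (-0.26), Eif2ak3 (0.08) and Eif2ak4 (-0.07) did not pass. In 30 mg/kg livers of day 15, 2 of 21 rose, beside 2.71% of all genes. They were Atf3, by 2.20 ± 0.55, and Nupr1, by 1.46 ± 0.27. Atf4 had a change of 0.11 ± 0.12.

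p53 is known to induce Gdf15. Of 13 tested p53 target genes, 10 rose at 80 mg/kg on day 4, when 18.3% of all genes rose. By day 15, 11 had risen and 1 had fallen, with a median of 1.35 and 38.8% of all genes up, among them Gadd45a (2.50 ± 0.37), Ddit4l (2.43 ± 0.38) and the exonuclease gene Aen (1.68 ± 0.16). PPAR alpha, the fasting regulator of Fgf21, had 9 of 16 tested targets up and 5 down on day 15, beside 38.8% and 20.5% of all genes. Acot1, a cytosolic acyl-CoA thioesterase, had a change of 10.98 ± 1.01, but its control signals of day 15 had a geometric mean of 0.913, far below the median of all values, so the size is uncertain. Acot2, its mitochondrial relative, rose by 3.38 ± 0.22 and Vnn1 by 2.87 ± 0.34, while Cyp4a8 fell by 2.22 ± 0.51, the fatty acid binding protein gene Fabp1 by 0.95 ± 0.11 and Angptl4 by 0.93 ± 0.28. Of 17 other transcription factors known to act on either hormone gene, 5 rose and 7 fell on that day. Nfe2l2, which encodes Nrf2, rose by 0.85 ± 0.16, and the PPAR partner Rxra fell by 1.28 ± 0.28.

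**Figure D4:**
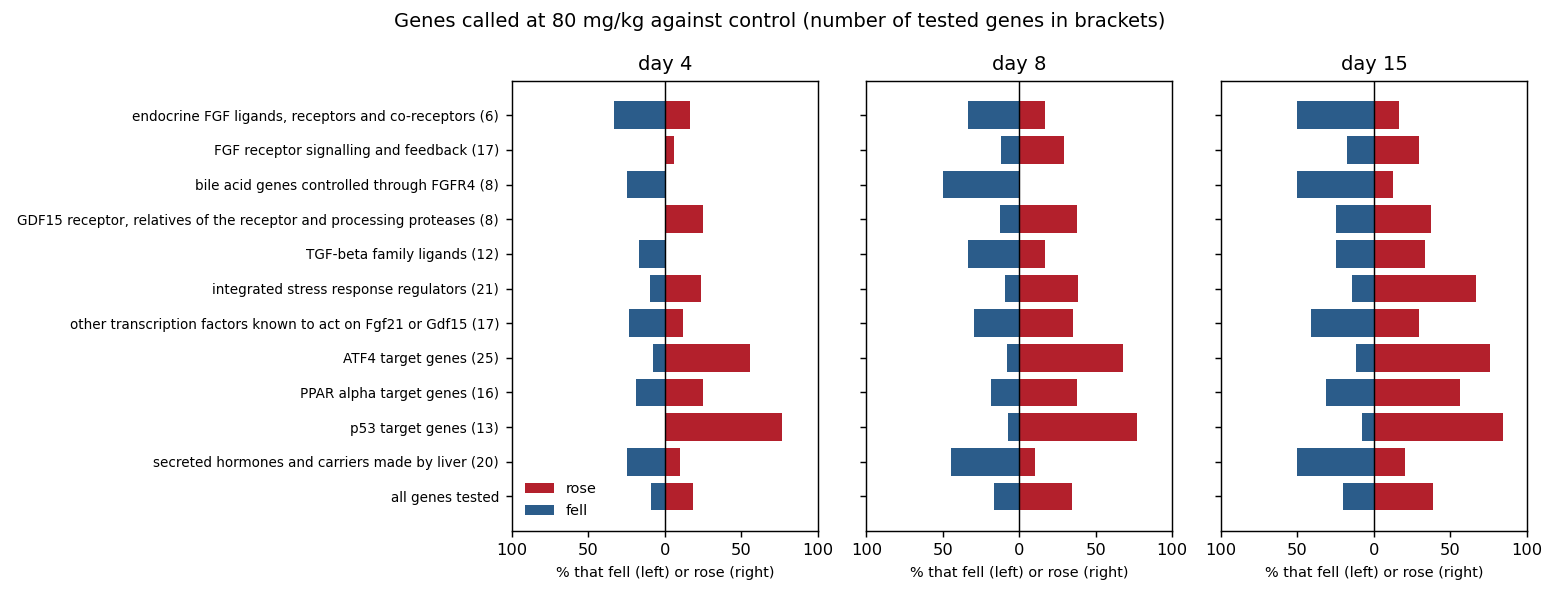
Share of the tested genes of each pathway list that rose (right, red) or fell (left, blue) at 80 mg/kg against control on days 4, 8 and 15, with the number of tested genes in brackets and all genes in the lowest row. Of the 11 pathway lists drawn, p53 and ATF4 targets have the longest bars to the right on all 3 days; lists can share genes, and Fgf21 and Fgfr4 are in the endocrine FGF list.

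Among other hormones and carrier proteins made by liver, 4 of 20 tested rose and 10 fell at 80 mg/kg on day 15, beside 38.8% and 20.5% of all genes. Their median was -0.35. The binding protein genes Igfbp2 and Igfbp1 rose by 3.68 ± 0.27 and 1.39 ± 0.35, and Lcn2, a lipocalin, by 1.57 ± 0.25. Those that fell included angiotensinogen (Agt, by 1.63 ± 0.11), Mst1 (by 1.37 ± 0.09), Fetub (by 1.15 ± 0.12) and Igf1 (by 1.13 ± 0.11). With quantile normalization 6 rose and 7 fell.

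Markers of some cell types moved with these groups, and in whole liver fewer cells of a type and less RNA per cell cannot be told apart. All 7 tested biliary markers rose at 80 mg/kg on day 15, when 38.8% of all genes rose and 20.5% fell. Their summed signal was 980.85 to 1371.83 in 80 mg/kg livers and 224.66 to 293.79 in controls of day 15. Of 10 macrophage markers 7 rose and 1 fell, with sums of 4331.73 to 5465.28 in 80 mg/kg livers and 3473.69 to 4032.74 in controls. Hepatocyte markers had 5 of 8 lower and 1 higher, with sums of 35490.6 to 50520.9 in 80 mg/kg livers and 45061.1 to 59563.1 in controls. The summed signals of stellate and fibroblast, endothelial, neutrophil and adipocyte markers overlapped between 80 mg/kg and control livers on day 15. In 30 mg/kg livers of day 15 the macrophage sum was 4119.24 to 4796.77, above all controls, and the biliary sum was 274.99 to 421.62, overlapping the controls. None of the 7 biliary or 10 macrophage markers passed there, with median changes of 0.88 and 0.25. Of 8 hepatocyte markers 1 rose, beside 2.71% of all genes, with sums of 50080.7 to 58551.8. The part of cell composition in the changes at either dose was not tested.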

How the data were processed

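RNA from 57 rat livers was labelled with a GeneChip 3' IVT kit, per the labels' protocols. The deposited intensity values are MAS5 signals, per the submitters' processing notes, which give no version; the array scans were not reprocessed. The values are linear. Arrays had been scaled alike: without the lowest and highest 2% of values, the array means lay between 99.9921 and 99.9924. The table holds 31099 probe sets, of which 20826 had 1 gene symbol, 436 several and 9831 none. Of those with 1 symbol, 20764 were named through RefSeq by Entrez ID.

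Signals were log2 transformed with no offset. Probe sets had to exceed 17.09, the median over the table, in 4 or more arrays. Each gene was read from its probe set with the highest mean log2 signal, which gave 10725 genes. limma 3.58.1 in R 4.3.3 was fitted to all arrays with a mean for each of 12 groups and eBayes with trend, over 23 comparisons. Figures and permutations used Python 3.11.15, numpy 2.4.6, pandas 2.3.3 and matplotlib 3.10.9. Correlations were taken over deviations from group means with 100000 permutations within groups, and the dose by dose values were added after the pooled ones were seen. The steps were tested on simulated data with 200 changed genes.

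The members and the gene lists were chosen with earlier results of these data known. Named genes are the members, the measured genes of the endocrine FGF and GDF15 receptor lists, up to 4 called genes in each direction of the other lists at 80 mg/kg on day 15, and the 5 genes most like each member. Genes given beyond these (Atf4, the eIF2 kinases other than Eif2ak1, Stc2 and Psph) were chosen after their values were seen. Alternatives were 2 normalizations, no filter, an offset of 3.31, averaging the probe sets of a gene, no variance trend, array weights, the compared groups alone, the replicate number as a block, the actin ratio as a covariate and each array left out in turn. The study design has 6 rats in each group; 4 or 5 were analysed here.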

Additional observations from a re-analysis of the deposited data

Results flagged for a closer look

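In 1 of 36 sets of a gene and a group, a single array stood apart from the rest by Dixon's test: Fgfr4 in control livers of day 24, where replicate 3 read 169.26 and the next highest 136.88. On the log2 scale the gap was 0.888 of the range, above the critical value of 0.829. Chance marks about 1 in 20 sets.

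Of 24 tests of whether a dose effect differed between days, 7 passed. At 80 mg/kg the change of Fgf21 was larger on day 15 than on day 4 by 1.57 (adjusted p = 0.0232, limma) and the change of Fgfr4 differed by -0.83 (adjusted p = 0.00131). From day 15 to day 24 at 80 mg/kg, the effect moved by -3.99 for Fgf21, -2.25 for Gdf15 and 1.41 for Fgfr4 (adjusted p = 2.03e-08, 0.00165 and 6.46e-08). At 30 mg/kg the effect on Fgf21 moved by 2.49 from day 4 to day 15 (adjusted p = 0.0258) and by -2.76 from day 15 to day 24 (adjusted p = 0.00519).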

How the results depend on the processing

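No called change of Fgf21, Gdf15 or Fgfr4 reversed under any alternative run. With 1 array left out, called results kept their call in 281 fits and missed the threshold in 19, and under the other alternatives in 236 and 4. These 236 include the averaging of probe sets, which could not alter the log2 changes of genes with 1 probe set. The fits with no filter, with no variance trend and on the compared groups alone could not alter these log2 changes either. In them the p-values could move but no change could reverse. At a common median, Gdf15 at 80 against 30 mg/kg on day 8 was 0.95 (adjusted p = 0.0543) and Fgfr4 at 80 mg/kg on day 24 was -0.12. Array weights gave 0.98 for Fgf21 at 80 against 30 mg/kg on day 15, which then passed, and 0.020 for the change of the 30 mg/kg effect on Fgfr4 from day 4 to day 15. With the compared groups alone, Fgfr4 at 80 mg/kg on day 4 (-0.45) and Fgf21 at 30 mg/kg on day 4 (1.48) missed the threshold, and Fgf21 at 80 mg/kg on day 24 (0.70) and in controls of day 24 against day 4 (-0.64) passed. With the actin covariate the gain of Fgf21 from day 4 to 15 at 80 mg/kg was 1.55. The causes were not tested.

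With each array left out, called results that changed were Fgfr4 at 80 mg/kg on day 4 (-0.60 to -0.37), Fgf21 at 30 mg/kg on day 4 (1.11 to 1.78) and the day 15 minus day 4 effects on Fgf21 at 80 mg/kg (1.24 to 1.98) and 30 mg/kg (2.19 to 2.86). Results that had missed the threshold and passed without 1 array were Fgf21 at 80 against 30 mg/kg on day 15 (0.49 to 0.96) and the day 15 minus day 4 effect of 80 mg/kg on Gdf15 (0.89 to 1.67, without 80 mg/kg day 4 replicate 5). Results near 0 that changed sign were Gdf15 at 30 mg/kg on day 8 (-0.17 to 0.20) and, for the 30 mg/kg effect on Fgfr4, day 8 minus 4 (-0.15 to 0.027), day 15 minus 8 (-0.035 to 0.14) and day 15 minus 4 (-0.072 to 0.083). In controls they were Gdf15 (-0.069 to 0.52) and Fgfr4 (-0.0045 to 0.15) on day 8, Fgf21 (-0.20 to 0.0035) and Fgfr4 (-0.075 to 0.057) on day 15, and Fgfr4 on day 24 (-0.042 to 0.091), each against day 4.

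The replicate block changed no call of the 3 genes, with Fgf21 at 80 mg/kg on day 15 at 4.69 (adjusted p = 5.8e-15, limma). In 0 of 36 same-numbered pairs did deviations correlate above 0.1, so the numbers do not pair the rats. Each gene has 1 probe set, so the alternative of another probe set was not run. Scaling moved the whole table: the median change at 80 mg/kg was 0.08, 0.15, 0.16 and 0.04 on days 4, 8, 15 and 24 as deposited, and -0.05, -0.07, 0.03 and -0.21 at a common median. The calls on day 4 were 1966 up and 986 down as deposited and 943 up and 1596 down at a common median. Control signals of Fgf21 and Gdf15 lie near 17.09, the median of all values, which limits their fold changes.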

Other observations

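Among the ATF4 target genes, chosen here after their values were seen, Ddit4 and Chac1 had larger changes at 30 than at 80 mg/kg on day 15. Ddit4, an mTORC1 inhibitor, had 1.88 ± 0.45 at 80 mg/kg and 2.86 ± 0.45 at 30 mg/kg, and both passed (adjusted p = 0.000337 and 7.01e-05, limma). Chac1, a glutathione-degrading enzyme, had 0.46 ± 0.50 at 80 mg/kg and 2.26 ± 0.50 at 30 mg/kg (adjusted p = 0.441 and 0.00384). At 80 against 30 mg/kg the difference was -1.80 ± 0.50 for Chac1, which passed (adjusted p = 0.00188), and -0.98 ± 0.45 for Ddit4, which did not (adjusted p = 0.0614).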
